A study of Homo sapiens and Mus musculus with 213 samples.

Results

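The zinc finger genes of chromosome 19 are protein-coding genes whose symbol starts with ZNF and that lie in long rows of related copies on both arms of the chromosome. GENCODE places 249 of them on chromosome 19, all of which are listed in the RNA-seq files, and the 198 whose normalized counts averaged 10 or more across the 9 libraries are the members described here, 55 on 19p and 143 on 19q. The files list 58336 genes in all, of which 20884 reached the same minimum and were tested. The member just above the minimum was ZNF506, with a mean of 14.1, and ZNF575, ZNF439 and ZNF20 lay just below it at 9.28, 8.83 and 6.99. A member that is low in one line can pass only through another line in which it is high, which was so for 8 members with a mean under 10 in at least 1 line.

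Most of these genes encode proteins in which a KRAB domain at one end is followed by a row of C2H2 zinc fingers. The fingers read a DNA sequence, often within a transposable element, and the KRAB domain recruits the corepressor TRIM28 (KAP1), which brings the histone methyltransferase SETDB1 and heterochromatin protein HP1 and so silences the bound site. The family grew by tandem duplication, so that neighbours on the chromosome are often close copies, and the gene bodies of many members themselves carry heterochromatin marks.

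Expression was measured by RNA-seq in HEK293T cells, a human embryonic kidney cell line, with 3 libraries for each of 3 lines. WT carries the native G-quadruplex (G4) motif in the promoter region of MYC, MUT carries point mutations that abolish the folding of that motif, and SWP carries a G4-forming sequence from another gene's locus in its place. Both edits were made by CRISPR with sorting of single cells and expansion of clones, and the sources do not say which clones gave the RNA-seq libraries, so that the effect of the edit, of the clone and of growth since cloning cannot be told apart. WT libraries carry the name of a sequencing pool that the names of MUT and SWP libraries do not, so that a pool and the contrast of an edited line with WT cannot be told apart either. The fold change of MUT against SWP is free of WT values, but its test shares one estimate of the spread with the WT libraries.

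The libraries held from 65024354 to 98497026 reads assigned to genes. MYC, the edited gene, had normalized counts of 20020.3, 28396 and 21580.1 in WT, 10693, 11176 and 12399.8 in MUT and 14480.1, 24743 and 25245 in SWP, lower in every MUT library than in every other library. Replicate 1 stood apart from the other 2 libraries of its line in WT and in SWP, and the counts of members without these 2 libraries are given below. The 5 genes checked as known from HEK293T cells (VIM, KRT8, KRT18, PAX2 and NEFM) were at 149 or more normalized counts in every library, and the leukocyte gene PTPRC had at most 2 reads and ALB, a liver gene, at most 8.

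Along the chromosome, the 249 genes fell into 10 clusters of at least 5 ZNF genes separated by gaps of more than 500 kb, and each cluster is named here by its first and last ZNF gene, with hg38 coordinates. On 19p these were ZNF554 to ZNF77 (chr19:2819868-2944971, 4 members of 5 genes), ZNF414 to ZNF846 (chr19:8509678-9793180, 11 of 14), ZNF653 to ZNF791 (chr19:11483427-12640098, 17 of 26) and ZNF101 to ZNF254 (chr19:19668796-24129968, 20 of 37). On 19q they were ZNF302 to ZNF792 (chr19:34677639-34964229, 5 of 5), ZNF565 to ZNF573 (chr19:36182276-37817300, 26 of 26), ZNF575 to ZNF180 (chr19:43525497-44500524, 20 of 23), ZNF175 to ZNF331 (chr19:51571283-53580269, 31 of 40), ZNF628 to ZNF835 (chr19:55476617-56671783, 14 of 16) and ZNF264 to ZNF446 (chr19:57191500-58481230, 37 of 43). The remaining 13 members were scattered. A KRAB A box was found in the coding sequence of 167 members and not in 31, and the members had a median of 13 C2H2 finger patterns, from 1 in ZNF428 to 32 in ZNF91.

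Promoters of the same cluster shared short sequences. The RefSeq table of promoters on GRCh38.p14, with 250 bases before and 50 after the start of each gene, held 177 of the 198 members. The 8 letters CCAATCAG, which contain the CCAAT box, were found on either strand in 38 of these (21.5%) and in 4.06% of all 27305 promoters of the table. They were in 18 of 18 members of ZNF101 to ZNF254 and in 14 of 17 of ZNF653 to ZNF791, but in 0 of 25 of ZNF565 to ZNF573 and 0 of 34 of ZNF264 to ZNF446. The 9 letters TTTCCCAGA were found in 22 members (12.4%) and in 0.971% of all promoters, in 10 of 25 members of ZNF565 to ZNF573 and in 7 of 16 of ZNF575 to ZNF180. A G4 motif, 4 runs of at least 3 G with loops of 1 to 7 bases on either strand, was in 32 members (18.1%) against 23.7% of all promoters, and 13 of the 27 members of ZNF175 to ZNF331 had one. Both short motifs were picked after the promoters had been read, and neither short motif contains the other.

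The promoters below belong to members whose values the results turn on. Each is written from 5′ to 3′ along the strand of the gene, with matches to the 3 motifs in capitals. ZNF726 and ZNF85 were both far above WT in SWP, and both hold CCAATCAG 2 times, at the same spacing. ZNF563 had the largest rise in MUT. ZNF331 holds TTTCCCAGA 3 times, and ZNF829 had the largest rise in MUT among the members of ZNF565 to ZNF573 with that sequence. ZNF492 had the largest fall in MUT and holds a G4 motif beside CCAATCAG.
ZNF726 (chr19:23914636-23914935, plus strand): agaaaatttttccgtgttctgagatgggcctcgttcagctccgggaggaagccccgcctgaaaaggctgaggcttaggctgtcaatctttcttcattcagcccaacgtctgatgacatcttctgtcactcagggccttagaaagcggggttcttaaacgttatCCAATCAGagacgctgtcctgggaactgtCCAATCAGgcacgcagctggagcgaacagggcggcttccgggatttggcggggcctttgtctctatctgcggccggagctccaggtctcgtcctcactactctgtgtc
ZNF85 (chr19:20923001-20923300, plus strand): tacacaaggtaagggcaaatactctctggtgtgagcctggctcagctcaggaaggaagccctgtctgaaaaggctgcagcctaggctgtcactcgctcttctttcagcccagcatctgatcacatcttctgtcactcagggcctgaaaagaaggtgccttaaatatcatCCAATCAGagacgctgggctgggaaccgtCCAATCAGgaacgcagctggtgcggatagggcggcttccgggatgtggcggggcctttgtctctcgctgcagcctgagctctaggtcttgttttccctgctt
ZNF563 (chr19:12333584-12333883, minus strand): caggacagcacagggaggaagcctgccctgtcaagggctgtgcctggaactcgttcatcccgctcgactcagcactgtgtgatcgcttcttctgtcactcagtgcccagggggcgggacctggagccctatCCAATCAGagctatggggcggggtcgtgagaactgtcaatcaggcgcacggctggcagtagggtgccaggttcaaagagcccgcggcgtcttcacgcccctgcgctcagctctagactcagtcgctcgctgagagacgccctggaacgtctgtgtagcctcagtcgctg
ZNF331 (chr19:53520764-53521063, plus strand): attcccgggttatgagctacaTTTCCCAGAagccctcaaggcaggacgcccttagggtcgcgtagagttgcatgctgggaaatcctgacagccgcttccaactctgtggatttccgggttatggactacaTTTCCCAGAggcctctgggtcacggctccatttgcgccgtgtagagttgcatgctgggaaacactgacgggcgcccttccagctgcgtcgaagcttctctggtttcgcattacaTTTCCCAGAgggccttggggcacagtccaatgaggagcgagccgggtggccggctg
ZNF829 (chr19:36915990-36916289, minus strand): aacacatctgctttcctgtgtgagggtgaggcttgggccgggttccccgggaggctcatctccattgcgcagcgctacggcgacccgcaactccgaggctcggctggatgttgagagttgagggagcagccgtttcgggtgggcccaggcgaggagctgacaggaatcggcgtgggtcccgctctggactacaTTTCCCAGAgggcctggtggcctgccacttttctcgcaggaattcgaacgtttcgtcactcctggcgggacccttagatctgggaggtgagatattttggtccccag
ZNF492 (chr19:22634074-22634373, plus strand): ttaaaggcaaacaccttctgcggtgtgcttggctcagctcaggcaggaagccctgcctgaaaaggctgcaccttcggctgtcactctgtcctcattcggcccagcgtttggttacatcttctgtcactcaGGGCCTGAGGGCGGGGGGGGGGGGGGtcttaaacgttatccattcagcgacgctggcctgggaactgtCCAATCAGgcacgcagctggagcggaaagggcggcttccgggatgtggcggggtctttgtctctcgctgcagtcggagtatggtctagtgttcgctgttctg

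In MUT, 102 of the 198 members (51.5%) rose against WT and 8 fell. Of all 20884 genes tested, 11.3% rose and 10.1% fell, 21.4% in all. A gene was said to rise or fall where limma, adjusted by Benjamini-Hochberg across all tested genes, gave an adjusted p below 0.05 and where its log2 fold change passed 0.5 in size. The median log2 fold change was 0.53 over the members, while over all genes tested it was -0.00338. The 3 MUT libraries lay wholly above the 3 WT libraries in 139 members and wholly below in 18, against 25.9% and 26.4% of all genes tested. Such a pattern gives p = 0.1 in an exact two-sided permutation test, the smallest that 3 against 3 allows. In bulk RNA, fewer cells with a transcript and less RNA per cell cannot be told apart. The labels do not say that the 3 libraries of a line came from separate cultures, so p-values measure the spread between these libraries.

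The members that rose were mostly those with a KRAB domain. Among members with a KRAB A box, 98 of 167 were higher and 4 lower (median 0.59). Among the 31 without one 4 were higher and 4 lower (median -0.09). The 6 scattered members with a KRAB A box had 0 higher and 2 lower (median 0.06). ZNF genes of other chromosomes that have a KRAB A box had 13 higher and 3 lower of 101 tested (median 0.13), and those without one had 19 higher and 10 lower of 135. The other protein-coding genes of chromosome 19 had 107 higher and 73 lower of 794 (median 0.02). These are counts, and the differences between the sets were not tested. The members differ from the other genes in level, so they were also split by mean count into 3 equal groups. The share called higher was set beside that of all genes in the same range of counts, members included. It was 62.1% against 18.5% in the low group, 53.0% against 16.1% in the middle group and 39.4% against 5.5% in the high group. Levels were not matched within a range, and the part played by level was not tested.

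**Figure D1:**
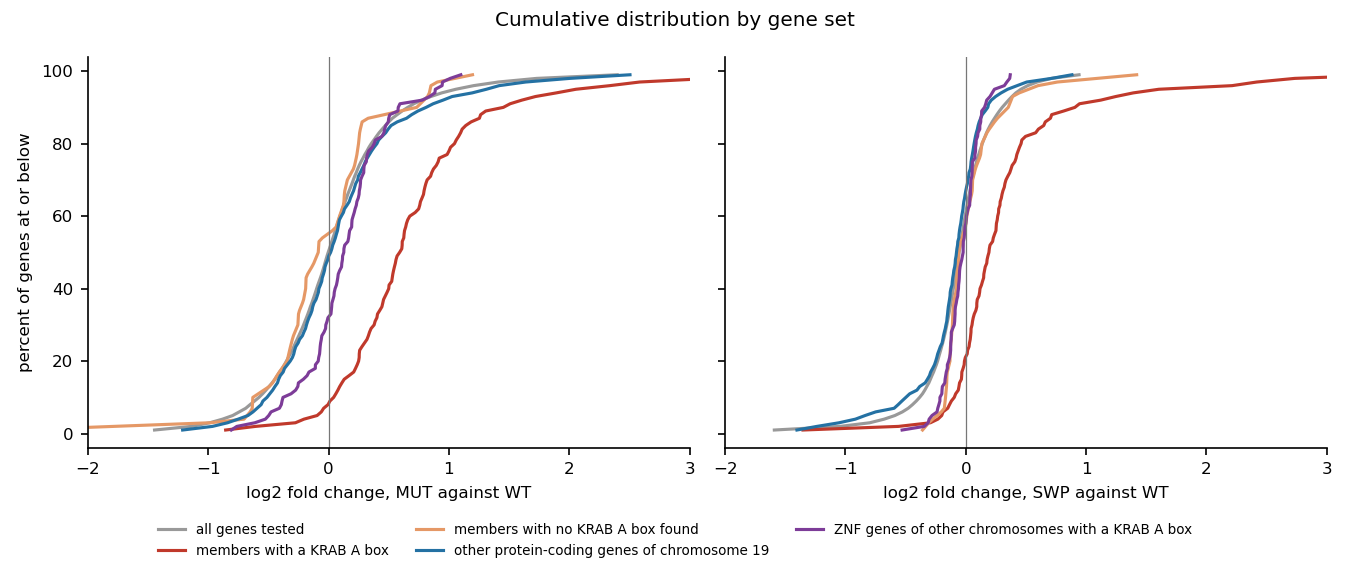
Cumulative distribution of the log2 fold change against WT in MUT (left) and SWP (right), with the percent of genes at or below each value on the vertical axis, for 5 sets of genes. Members with a KRAB A box have the highest median of the 5 sets in both panels, 0.59 and 0.19.

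The most complete change of a whole cluster in MUT was that of ZNF565 to ZNF573 on 19q. Of its 26 members, 23 were higher and 0 lower, with a median log2 fold change of 0.87 and a range from 0.13 to 3.42, and the mean of MUT was the highest of the 3 lines in all 26. The called members formed an unbroken run of 23 from ZNF566 to ZNF607. The run stopped at the ends of the cluster, at ZNF565 and ZNF146 on one side and at ZNF573 on the other, whose log2 fold changes were 0.38, 0.13 and 0.50. ZNF146 is the most abundant member of the cluster. It lacks a KRAB A box, but so do ZNF260 and ZNF345 inside the run, and 2 of these 3 were called higher. In the middle of the run lay ZNF829, with 308, 306 and 363 normalized counts in WT, 1189, 1191 and 1193 in MUT and 573, 489 and 444 in SWP (log2 fold change 1.87, SE 0.11, adjusted p = 9.03e-07, MUT against WT). ZNF566, at the start of the run, had 766, 783 and 814 in WT, 1474, 1404 and 1413 in MUT and 937, 863 and 845 in SWP (log2 fold change 0.86, SE 0.08, adjusted p = 1.18e-05). The MUT libraries did not overlap with the WT libraries in either gene. ZNF585A and ZNF585B, which lie in the run, are near-identical copies, and how reads were split between them is uncertain. In SWP, 3 of the 26 were called higher (ZNF382, ZNF829 and ZNF793) and 0 lower (median 0.27), and in MUT against SWP 20 were higher and 0 lower.

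**Figure D2:**
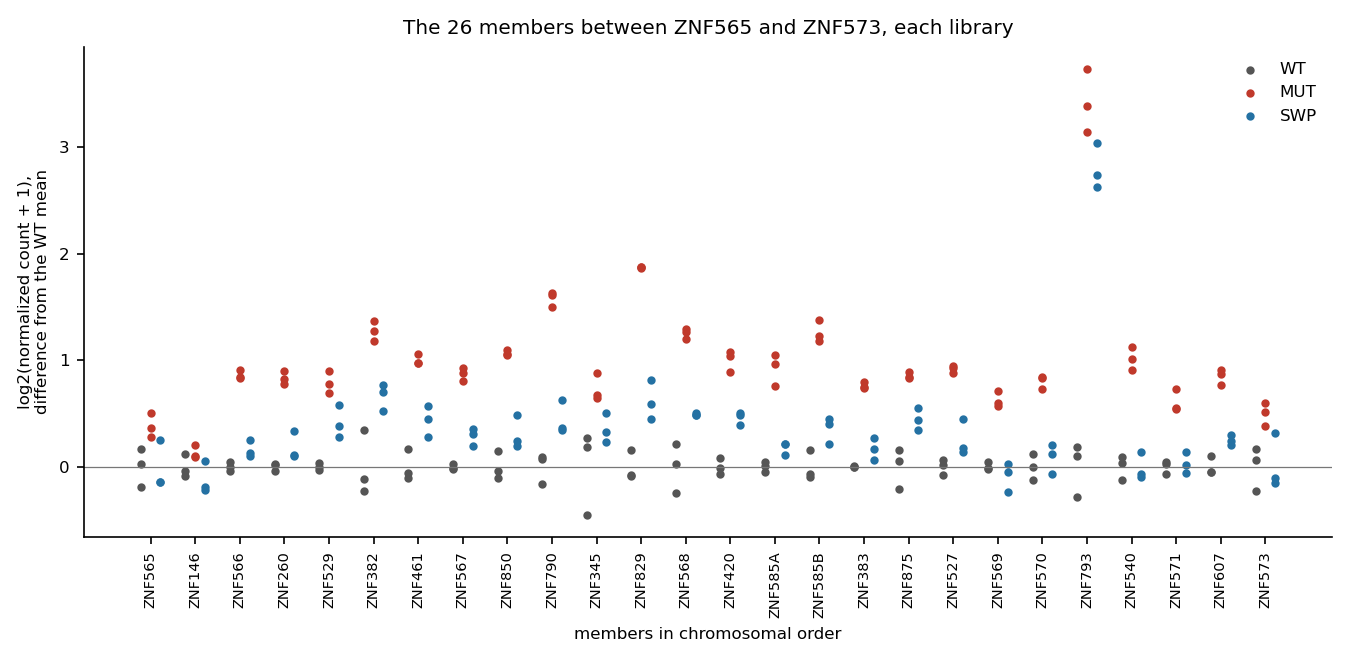
Each library of the 26 members of ZNF565 to ZNF573 in chromosomal order, as log2(normalized count + 1) less the mean of the WT libraries. The MUT points lie above the WT points from ZNF566 to ZNF607, with ZNF793 highest, and the mean of SWP lies between those of the other 2 lines in 22 of the 26 members.

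Other clusters changed in part. ZNF264 to ZNF446, at the end of 19q, had 22 of 37 members higher and 1 lower (median 0.61), in runs of 7 from ZNF416 to ZNF586 and of 5 from ZNF543 to ZNF17 and from ZNF417 to ZNF274. ZNF274, which binds zinc finger genes themselves and recruits SETDB1 to them, rose from 1322, 1496 and 1448 in WT to 2113, 2227 and 2158 in MUT (log2 fold change 0.61, SE 0.08, adjusted p = 0.000117) and had 1552, 1452 and 1398 in SWP. ZNF575 to ZNF180 had 13 of 20 members higher and 0 lower (median 0.60). ZNF653 to ZNF791 on 19p had 10 of 17 members higher and 0 lower (median 0.75), and these 10 formed a run from ZNF441 to ZNF443 unbroken by another member. Runs were counted over members alone. Genes under the minimum lie within this one, among them ZNF763 and ZNF878 on either side of ZNF433. ZNF414 to ZNF846 had 6 of 11 members higher and 0 lower (median 0.53) and ZNF101 to ZNF254 9 of 20 members higher and 1 lower (median 0.44). ZNF175 to ZNF331 had 12 of 31 members higher and 2 lower (median 0.33), ZNF302 to ZNF792 had 2 of 5 members higher and 0 lower (median 0.48) and ZNF554 to ZNF77 1 of 4 members higher and 0 lower (median 0.25).

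ZNF628 to ZNF835 was split along its length. Its first block, from ZNF628 to ZNF581, holds 7 members with no KRAB A box found, of which 0 were higher and 1 lower in MUT, with log2 fold changes from -0.72 to -0.08. The next block, from ZNF787 to ZNF71, holds 7 members, 5 of them with a KRAB A box, of which 4 were higher and 0 lower (median 0.61). Of the 13 scattered members, 0 were higher and 3 lower (ZNF333, ZNF296 and ZNF114). 

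Genes of other kinds that lie between the members are given for comparison. Of 37 protein-coding genes without a ZNF symbol that lie inside the clusters, 8 were higher and 3 lower in MUT (median 0.11). ZSCAN18, a zinc finger gene with a SCAN domain, was among them at 137, 217 and 136 in WT and 740.4, 817 and 784 in MUT (log2 fold change 2.28, SE 0.19, adjusted p = 8.4e-06). Of 100 noncoding genes and pseudogenes inside the clusters, 23 were higher and 4 lower (median 0.21). LINC00665, a long noncoding RNA inside ZNF565 to ZNF573, had 112, 73.0 and 78.9 in WT, 588, 583 and 577 in MUT and 198, 163 and 151 in SWP. ZSCAN18 and LINC00665 were named after their values were seen, and the shares of the 3 kinds of gene were not compared by a test. A total of 86 members overlap another gene with a mean of at least 10, and since the use of strand in the counting is not given, reads of such pairs cannot be told apart.

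In SWP against WT, the called members were spread over 7 clusters and 1 scattered gene. A total of 28 of 198 members were higher (14.1%) and 3 lower, beside 2.15% of all genes tested called higher and 2.98% called lower (5.13% in all), and the median over the members was 0.15 against -0.06 over all genes. SWP libraries lay wholly above WT libraries in 83 members and wholly below in 8, against 9.1% and 15.5% of all genes. Of the 28 that rose, 27 have a KRAB A box, and of the 101 KRAB genes tested on other chromosomes 0 rose, by limma at the same threshold. The largest number in one cluster was 7 of 20 in ZNF101 to ZNF254, followed by 6 of 31 in ZNF175 to ZNF331 and 5 of 17 in ZNF653 to ZNF791. CCAATCAG was in the promoter of 12 of the 24 risen members with a promoter in the table and of 25 of the 151 not called. In MUT against WT it was in 17 of 92 risen members (18.5%) and in 20 of 79 not called (25.3%). Of 41 chromosome 19 ZNF genes under the minimum with a promoter, 19 hold it (46.3%). The motif itself goes with the 19p clusters named above, and its link with the calls was not tested. Runs of called neighbours, again counted over members alone, had at most 3 genes.

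The edited lines were also compared directly. In MUT against SWP, 64 members were higher and 11 lower, beside 12.3% and 8.31% of all genes tested (20.6% in all), and the median was 0.31 over the members and 0.04 over all genes. ZNF565 to ZNF573 held 20 of the 64 and ZNF264 to ZNF446 held 15. In a fit of the MUT and SWP libraries alone, 64 members were higher and 12 lower. In ZNF101 to ZNF254 there were 2 members higher and 5 lower in MUT than in SWP. The highest of the 3 line means was in MUT for 151 members, in SWP for 29 and in WT for 18. Over all genes tested it was in MUT for 8775, in SWP for 4487 and in WT for 7622.

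Genes off in only some of the lines were few. A gene is called off here in a line whose 3 libraries each have at most 3 reads. Of the 249 ZNF genes, 44 were off in WT, 42 in MUT and 41 in SWP, and 39 of these were off in every line. The genes with more than 3 reads in each of the 3 libraries numbered 196 in WT, 203 in MUT and 201 in SWP. Summed over the 198 members, the normalized counts were 165833, 162696 and 166258 in WT, 211533, 208599 and 209347 in MUT and 185782, 169995 and 170619 in SWP. Among the members, 2 were off in one line and at a mean of at least 10 in another.

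ZNF726, in the ZNF101 to ZNF254 cluster (chr19:23914876-23945159), had no read in any WT or MUT library and 263, 426 and 241 reads in SWP, or 301, 316 and 278 normalized counts. Against a floor of 3 reads per library it was at least 96.0-fold higher in SWP than in WT and at least 104-fold higher than in MUT. The genes on each side did not show this pattern. ZNF254, 88.2 kb after it, had means of 921, 1025 and 954 in WT, MUT and SWP, and ZNF681 before it, which is no member, had 3.49, 8.58 and 2.66. The members whose values over the 9 libraries were most like those of ZNF726 were ZNF525, ZNF28 and ZNF66 (Pearson r of 0.96, 0.92 and 0.90 on the log2 scale). Since ZNF726 has reads in SWP alone, this ranking by itself picks members that are highest in SWP.

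ZNF506, in the same cluster, was off in WT. It had 2, 1 and 1 reads in WT, 44, 40 and 38 in MUT and 0, 5 and 2 in SWP. The ratio of MUT to WT was 28.2, with a 95% exact interval for counting error from 10.8 to 105.3. Most like it over the libraries were ZNF571, ZNF540 and ZNF83 (r of 0.97, 0.97 and 0.95). Since nearly all reads of ZNF506 are in MUT, this ranking by itself picks members that are highest in MUT. Of the genes under the minimum, ZNF285 had 2 reads in MUT over 3 libraries and 49 in SWP (ratio 24.9, interval from 6.54 to 211).

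The largest rise in MUT was that of ZNF563 in ZNF653 to ZNF791, with 5.13, 5.61 and 4.81 normalized counts in WT, 118, 124 and 125 in MUT and 33.2, 35.7 and 40.4 in SWP (log2 fold change 4.32, SE 0.19, adjusted p = 1.44e-07). It rose less far in SWP (log2 fold change 2.59, SE 0.19, adjusted p = 9.22e-06), and the 3 lines did not overlap. Its neighbours in the same run also rose in MUT: ZNF442 from a mean of 9.99 ± 7.88 (SD, n = 3) in WT to 55.9 ± 8.89 in MUT, and ZNF44 from 222 ± 31.3 to 367 ± 1.23. ZNF136, in the same run, had 228, 231 and 195 in WT, 1136, 1098 and 1061 in MUT and 441, 348 and 331 in SWP. ZNF433 in this cluster went opposite ways in the 2 edited lines. It had 51.3, 39.3 and 63.5 in WT, 242, 245 and 301 in MUT (log2 fold change 2.35, SE 0.23, adjusted p = 1.99e-05) and 11.5, 11.9 and 17.3 in SWP (log2 fold change -1.84, SE 0.23, adjusted p = 0.000414), with no overlap among the 3 lines. ZNF433-AS1, an overlapping antisense RNA, had 6.15, 2.24 and 4.81 in WT and 19.5, 25.3 and 20.8 in SWP. In MUT against WT it was called neither higher nor lower.

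ZNF331, an imprinted gene at the end of ZNF175 to ZNF331, had 14.4, 10.1 and 10.6 in WT, 275, 240.1 and 187 in MUT and 22.9, 10.4 and 6.92 in SWP. It was 20.1-fold higher in MUT than in WT (log2 fold change 4.21, SE 0.36, adjusted p = 8.7e-06), and WT and SWP overlapped. Its nearest neighbour ZNF813, 23.3 kb away, went the other way, from 30.8, 24.7 and 28.9 in WT to 14.8, 11.7 and 9.74 in MUT (log2 fold change -1.17, SE 0.35, adjusted p = 0.0218). ZNF793, in the ZNF565 to ZNF573 run, rose in both edited lines, with 11.3, 7.86 and 10.6 in WT, 142, 112 and 94.5 in MUT and 71.0, 87.7 and 65.7 in SWP. Its neighbours ZNF570 and ZNF540 had log2 fold changes of 0.80 and 1.01 in MUT and 0.08 and -0.01 in SWP, and neither passed the test in SWP.

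In ZNF101 to ZNF254, 4 members besides ZNF726 rose strongly in SWP or fell in MUT. ZNF85 had 15.4, 23.6 and 17.3 in WT, 134, 112 and 121 in MUT and 212, 259 and 244 in SWP (log2 fold change 3.62, SE 0.18, adjusted p = 6.21e-07, SWP against WT). ZNF66, its neighbour, had 7.18, 5.61 and 6.74, 17.6, 17.5 and 24.4 and 113, 66.9 and 78.4 in the same order of lines (log2 fold change 3.51, SE 0.26, adjusted p = 9.62e-06). For both genes the 3 lines did not overlap, with SWP highest and WT lowest. ZNF91, which represses SVA retrotransposons, had 42.03, 26.94 and 32.73 in WT, 75.8, 70.0 and 73.1 in MUT and 179.9, 163 and 164 in SWP (log2 fold change 2.30, SE 0.18, adjusted p = 1.39e-05), again with no overlap. ZNF492 fell in MUT, with 41.0, 29.2 and 41.4 in WT, 0, 5.83 and 5.84 in MUT and 115, 127 and 137 in SWP (log2 fold change -3.39, SE 0.60, adjusted p = 0.00111). All 3 SWP libraries of ZNF492 were above WT, but the difference did not pass the test (log2 fold change 1.75, SE 0.60, adjusted p = 0.094), and MUT against SWP did (log2 fold change -5.14, SE 0.60, adjusted p = 6.48e-05). In ZNF175 to ZNF331, ZNF28 fell in MUT and rose in SWP, with 311, 218 and 277 in WT, 176, 138 and 167 in MUT and 844, 657 and 615 in SWP, adjusted p = 0.00491 and 0.000334. ZNF525 had 41.0, 43.8 and 39.5 in WT and 264, 230.3 and 188 in SWP (log2 fold change 2.42, SE 0.22, adjusted p = 4.91e-05). ZNF28 overlaps ZNF468 and ZNF525 overlaps ZNF765.

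Few members fell. In MUT these were ZNF492, ZNF813 and ZNF28 above, and ZNF581, ZNF296, ZNF497, ZNF114 and ZNF333, whose log2 fold changes lay between -0.72 and -0.59. ZNF581, the most abundant of the 5, had 3044, 3752 and 3562 in WT, 1989, 2088 and 2193 in MUT and 2707, 3093 and 3348 in SWP, and it overlaps ZNF580 on the same strand. Of the 6 fallen members with a promoter in the table, 5 hold a G4 motif, against 11 of the 92 that rose and 16 of the 79 not called. Of the 29 members with a promoter and no KRAB A box found, 11 hold one, and 4 of the 5 fallen members with the motif (ZNF492, ZNF296, ZNF581 and ZNF497) are of that class. In SWP the members that fell were ZNF433, ZNF880 and ZNF114. ZNF880 had 46.1, 53.9 and 37.5 in WT, 18.5, 29.2 and 16.6 in MUT and 17.2, 4.46 and 8.07 in SWP (log2 fold change -2.26, SE 0.40, adjusted p = 0.00451). ZNF528 beside it rose in both edited lines, with means of 10.8 in WT, 45.3 in MUT and 36.4 in SWP. Its log2 fold change was 2.00 in MUT and 1.68 in SWP (SE 0.24, adjusted p = 0.00122 in SWP). ZNF471 rose in SWP, with 3.08, 22.4 and 17.3 in WT and 63.0, 44.6 and 53.0 in SWP (log2 fold change 2.16, SE 0.53, adjusted p = 0.025), and this call was lost without SWP replicate 2 or 3, without a trended prior, and in a fit of only the 2 lines compared. The call of ZNF813 was lost without WT replicate 1 or 3 or MUT replicate 2 or 3, that of ZNF114 in SWP without replicate 1 or 3 of either line, in a fit of only those 2 lines and with all genes with any count in the fit, and that of ZNF333 in MUT without WT replicate 2.

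**Figure D3:**
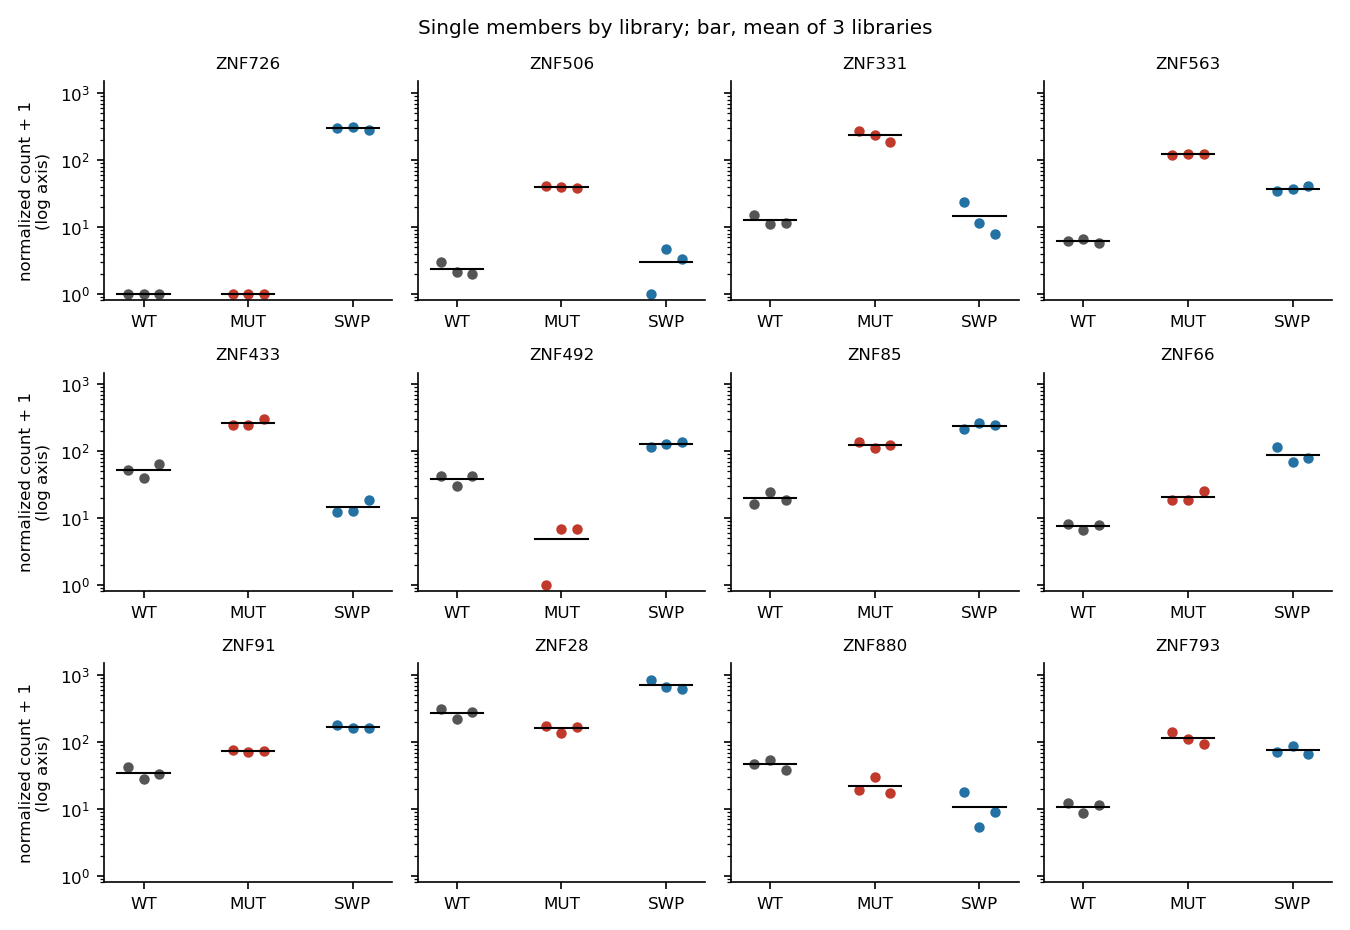
Normalized count + 1 on a log axis in each library for 12 members, with the mean of the 3 libraries as a bar. ZNF726 lies at 0 counts in all WT and MUT libraries, ZNF506 and ZNF331 are high in MUT alone, and ZNF433, ZNF492 and ZNF28 lie on opposite sides of WT in MUT and SWP.

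Genes linked to silencing by KRAB zinc finger proteins were taken from a list of partner genes. It includes corepressors, histone methyltransferases, DNA methyltransferases and histone demethylases, and it was not split by what the products do. Of 41 such genes tested, 0 were higher and 4 lower in MUT by limma (median -0.19), and 0 were higher and 1 lower in SWP. The shares called lower, 9.76% in MUT and 2.44% in SWP, were near the 10.1% and 2.98% of all genes tested. The shares called higher were 0.0% in both lines, below the 11.3% in MUT and 2.15% in SWP of all genes tested. The median in MUT was also below the -0.00338 of all genes. These differences between the list and all genes were not tested. TRIM28, the common corepressor, had 71958, 57586 and 65583 in WT, 58309, 54706 and 59318 in MUT and 68229, 51075 and 59279.7 in SWP (log2 fold change -0.17, SE 0.11, adjusted p = 0.23), and SETDB1 had 6848, 8016 and 7864, 6119, 6259 and 6789.8 and 6248, 6493 and 6472 (log2 fold change -0.24, SE 0.07, adjusted p = 0.0233, under the fold threshold). The 4 that fell in MUT were MPHOSPH8 (log2 fold change -0.66, SE 0.08, adjusted p = 7.61e-05), a subunit of the HUSH silencing complex, the histone demethylases KDM4A (-0.54) and KDM1A (-0.53), and TRIM33 (-0.53), a relative of TRIM28. MPHOSPH8 had 4009, 3740.0 and 3775 in WT, 2551, 2419.6 and 2347 in MUT and 3777, 3262 and 3238 in SWP. At equal totals per library the count lower in MUT was 1, and with no fold threshold the counts in MUT were 3 higher and 18 lower. SMARCAD1, a chromatin remodeler that binds TRIM28, fell in SWP (log2 fold change -0.62, SE 0.07, adjusted p = 0.000269).

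Of the zinc finger genes of chromosome 19 with other symbols (ZSCAN, ZFP, ZIM, ZIK, ZKSCAN, MZF and PEG3), 9 were tested, and 3 were higher and 1 lower in MUT. ZFP30, between the members of ZNF565 to ZNF573, had 1314, 1264 and 1428 in WT, 2244, 2090.1 and 2110.0 in MUT and 1625, 1533 and 1513 in SWP (log2 fold change 0.69, SE 0.07, adjusted p = 4.6e-05). ZFP28 had 192, 228 and 195 in WT, 556, 514 and 471 in MUT and 351, 413 and 344 in SWP and rose in both edited lines (adjusted p = 1.36e-05 and 0.00117). ZIK1 fell in both (log2 fold changes of -0.89 and -1.31). Without WT replicate 1 and SWP replicate 1, the members called higher were 100 in MUT against WT, 27 in SWP against WT and 73 in MUT against SWP, and those called lower were 11, 3 and 12.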

How the data were processed

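RNA-seq of 9 HEK293T libraries (WT, MUT and SWP, 3 each) was analysed, grouped by the GEO labels. Poly(A) RNA was made into libraries with a directional kit and sequenced on a NextSeq 500 with 75 cycles. The authors aligned reads to hg38 with BWA (0.7.17-r2188 in the submitters' processing notes) and counted them on GENCODE genes. The counting tool and its use of strand are not given in the sources used here. The deposited values are a signal in which the authors divided each gene's reads by a DESeq2 size factor, and whole reads could be recovered for all values within 0.01 reads. No per-sample column was left unused.

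Genes were tested with limma 3.58.1 (R 4.3.3) on log2(value + 1), all 9 libraries in one fit with a trended prior. Fold changes are on that scale and understate those of low genes. Symbols and coding sequences came from GENCODE 44, and a KRAB A box was called at 18 or more of 37 residues of a consensus. The fit was tested on simulated data. Members and gene lists were chosen with earlier results of these data known. Named were the 8 largest rises and falls among called members in MUT and in SWP against WT, members off in 1 line, ZNF91, ZNF93, ZNF274, ZNF331, ZNF143, ZNF202 and ZNF610 where they are members, their neighbours, and up to 3 members most like those off in 1 line. ZNF829, ZNF566 and the motifs were chosen after their values were seen. Same-numbered libraries deviated together in WT and SWP (correlations of 0.555, 0.403 and 0.102) and in MUT and SWP (0.333, 0.241 and 0.232), but not in every pair of WT and MUT (0.328, 0.146 and 0.049). Pairs with different numbers ran from -0.477 (WT 2 with SWP 1) to 0.263 (WT 2 with SWP 3). WT 3 was closer to SWP 2 (0.166) than to SWP 3, so the matching is not clear for replicate 3. A replicate block was therefore tried. The alternatives were other pseudocounts, minimum means, fold thresholds, scalings and gaps, edgeR 4.0.16 and DESeq2 1.42.0 on recovered reads, and each library left out in turn. Leaving out WT replicate 1 and SWP replicate 1 together was chosen after seeing the data. Intervals and floors cover counting error only. Some genes that were measured are not reported here.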

Additional observations from a re-analysis of the deposited data

Results flagged for a closer look

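The members below are those of the named genes that passed the direct test of MUT against SWP. The test was limma at an adjusted p under 0.05 with a log2 fold change beyond 0.5. They are a part of the 64 higher and 11 lower among all 198 members, so their split by direction is not that of the members. The log2 fold changes that follow are MUT against SWP. Higher in MUT were ZNF433 (4.20), ZNF331 (4.17), ZNF506 (4.00), ZNF563 (1.73), ZNF136 (1.56), ZNF880 (1.17), ZNF793 (0.62) and ZNF274 (0.56). Lower in MUT were ZNF492 (-5.14), ZNF28 (-2.13), ZNF66 (-2.05), ZNF525 (-1.95), ZNF91 (-1.20), ZNF85 (-0.96) and ZNF581 (-0.54). ZNF726 had no read in MUT and was at least 104-fold higher in SWP. ZNF91, ZNF66, ZNF85, ZNF492 and ZNF726, all lower in MUT than in SWP, lie in the cluster ZNF101 to ZNF254 on 19p. ZNF506, higher in MUT, lies there too. Over the 20 members of that cluster, 2 were higher and 5 lower in MUT, with a median of 0.12.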

How the results depend on the processing

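No result changed direction under the alternatives that were run. Of 582 values for the named genes, 566 kept their call and 16 lost it, in ZNF114 and ZNF471 (SWP) and ZNF333 and ZNF813 (MUT). The counts depended most on the fold threshold. At a log2 threshold of 1, 38 members were higher and 2 lower in MUT against WT, 12 were higher in SWP against WT, and 12 were higher and 7 lower in MUT against SWP. At that threshold 37 members with a KRAB A box and 1 without were higher in MUT, as were 9 in ZNF565 to ZNF573, 4 in ZNF101 to ZNF254 were higher in SWP, and 0 partner genes were lower in MUT. With no fold threshold, 13 members were lower in MUT against WT, 43 were higher in SWP against WT and 99 were higher in MUT against SWP, and 18 partner genes were lower and 3 higher in MUT. At equal totals the member medians were 0.60 (MUT) and 0.20 (SWP) against WT, and 1 partner gene was lower in MUT, 2 at equal upper quartiles. The SWP median was 0.209 with edgeR and 0.211 with DESeq2. Leaving out each library in turn gave 97 to 102 members higher and 7 to 9 lower in MUT against WT, 24 to 30 and 2 to 4 in SWP against WT, and 55 to 72 and 10 to 12 in MUT against SWP. The medians ranged from 0.50 to 0.54, from 0.113 to 0.202 and from 0.297 to 0.370. Without WT replicate 1 and SWP replicate 1 the MUT against SWP median was 0.370. With a replicate block, 102 members were higher and 9 lower in MUT against WT, 31 and 4 in SWP against WT, and 65 and 12 in MUT against SWP, and the main calls were all kept. Low members rest on few reads, and at 0 reads a rise is a lower bound.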
